A study of Hypericum perforatum with 6 samples.

Results

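The *FDM4-like* genes of *Hypericum perforatum* are 4 neighbouring copies, named A to D, that lie in tandem on 1 genomic contig. They are represented in the ovule transcriptome by 6 assembled transcripts out of 67022, and these 6 were taken by their identifiers, as the study assigns transcripts to genes. *FDM4-like A* has Locus_2_Transcript_485123_835163 and *FDM4-like D* has Locus_2_Transcript_485003_835163. *FDM4-like B* has Locus_2_Transcript_484442_835163 and Locus_2_Transcript_484959_835163, and *FDM4-like C* has Locus_2_Transcript_485004_835163 and Locus_2_Transcript_484402_835163. The rule names transcripts and uses no threshold on their values. The study's own alignments of the single variants of A and D to their genes covered only part of the variant, at lower identity than for the variants of B. The alignments of Locus_2_Transcript_484402_835163 to C and of Locus_2_Transcript_484959_835163 to B were also partial. Levels given below for A, D and these variants of C and B are therefore levels of the transcript so assigned.

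In plants, RNA-directed DNA methylation uses small interfering RNAs that pair with scaffold transcripts to bring a methyltransferase to matching loci. In Arabidopsis, INVOLVED IN DE NOVO 2 (IDN2) and the related FACTOR OF DNA METHYLATION (FDM) proteins act in this pathway downstream of small RNA production. A complete protein of the family carries a zinc finger (Zf-XS), an XS domain that binds double-stranded RNA, a coiled coil through which the proteins pair, and an XH domain that takes part in contacts between members. Arabidopsis FDM4 acts redundantly with FDM1. Small RNA pathways are also known to restrict which ovule cells enter the germline.

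Libraries came from the nucellus, the tissue of the ovule that surrounds the future spore mother cell, cut by laser from ovules before meiosis. There were 3 libraries from sexual and 3 from aposporous (apomictic) plants, and no other treatment was given. In aposporous plants an embryo sac forms from a somatic nucellus cell without meiosis. The study describes its plants as tetraploid accessions. Each library pooled RNA of 3 plants, from 250000 µm2 of sections, so the replicate is a pool (sexual pools 1 to 3 and aposporous pools 1 to 3) and each phenotype is an average over plants and over all cells of the section. Whether pools of 1 phenotype share an accession is not given in the sources used here, so p-values measure the spread between these pools. In such bulk tissue, fewer cells of a type and less RNA per cell cannot be told apart, and the transcripts carry no gene names by which the tissue label could be checked. Libraries had about 29355000 to 39483000 mapped reads, and 1 read on a transcript of 1 kb was worth 0.0253 to 0.0341 RPKM, the read count divided by length in kilobases and by library size.

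The genes lie on the plus strand of contig 61606 of the study's genome sequence, which comes from a diploid sexual plant. From the annotated start to the annotated stop of translation, introns included, *FDM4-like B* runs from 220754 to 224058, *FDM4-like C* from 225378 to 232682, *FDM4-like D* from 235763 to 238325 and *FDM4-like A* from 239715 to 241969. The whole cluster takes 21216 bases. Gaps between neighbours were 1319 bases from B to C, 3080 from C to D and 1389 from D to A. *FDM4-like C* is the longest copy, at 7305 bases, against 2255 to 3305 for the others.

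The encoded proteins fall into kinds that alternate along the contig. In the study's domain annotation the proteins of B and D hold both Zf-XS and XS, the domains for contact with nucleic acids, and the proteins of A and C lack both. In the study's protein tree B pairs with D and A pairs with C. The copies with and without these domains thus stand in the order B, C, D, A, with each copy that holds them upstream of one that lacks them.

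Short elements have been predicted in the regions upstream of translation. Elements of the WUSCHEL-related homeobox (WOX) family are shown because WUSCHEL is active in the nucellus of Arabidopsis ovules. Capitals mark the core of each match as the study's promoter annotation gives it, and the sequences are the matched stretches on contig 61606.
FDM4-like B: gcAATCAc
FDM4-like C: ccAATCAt
FDM4-like C: ggATTAA
FDM4-like D: cTGATTga
FDM4-like D: ttTAATTatc
FDM4-like A: aaTAATTaaa
B and C share the core AATCA, and the core TGATT of D is its reverse complement. A and D share the core TAATT. Of the matches shown, only the ATTAA match of C was annotated to the WOX family alone. The others were also annotated to homeodomain proteins, and those of A and D to bZIP and HD-ZIP proteins as well. A match to the family is not a match to WUSCHEL itself. The element table used here is shortened, so further matches may exist for any copy. These are predictions from short letter matches, no binding was measured in these libraries, and the share of other upstream regions that hold the same letters is not given here.

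*FDM4-like D* was the most expressed copy in 6 of 6 libraries. Its transcript Locus_2_Transcript_485003_835163, 1420 nt long, was at 105, 69.1 and 70.8 RPKM in sexual pools 1 to 3 and at 99.9, 88.4 and 114 RPKM in aposporous pools 1 to 3. The phenotypes overlapped, because sexual pool 1 lay above 2 of the aposporous pools. Its mean over the 6 libraries, 91.2 RPKM, exceeded that of 92.9% of the 33117 tested transcripts.

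*FDM4-like A*, at the downstream end of the cluster, was at a similar level in all pools. Locus_2_Transcript_485123_835163, 1735 nt long, was at 20.1, 28.1 and 19.5 RPKM in sexual and 23.0, 18.0 and 25.9 RPKM in aposporous pools 1 to 3. Each phenotype spanned a range of 1.44-fold and the ranges overlapped.

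*FDM4-like B* was the least expressed copy in 5 of 6 libraries. Its main variant Locus_2_Transcript_484442_835163, 919 nt long, was at 14.3, 4.99 and 3.56 RPKM in sexual and 4.63, 2.46 and 5.37 RPKM in aposporous pools 1 to 3. Sexual library 1 stood apart, and the other 5 libraries overlapped. The other variant, Locus_2_Transcript_484959_835163, 685 nt long, had 10, 6 and 1 reads in sexual and 4, 9 and 0 reads in aposporous pools 1 to 3. It did not pass the filter of at least 10 reads in at least 3 libraries and was not tested.

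*FDM4-like C* had the widest range between libraries, with the lowest total in sexual pool 1 (7.14 RPKM) and the highest in aposporous pool 2 (55.3 RPKM). Its main variant Locus_2_Transcript_485004_835163, 1516 nt long, was at 7.08, 17.7 and 21.6 RPKM in sexual and 25.7, 41.0 and 31.5 RPKM in aposporous pools 1 to 3. All 3 aposporous values lay above all 3 sexual values. The second variant, Locus_2_Transcript_484402_835163, 821 nt long, was at 0.0630, 0 and 0 RPKM in sexual and 8.75, 14.3 and 1.33 RPKM in aposporous pools 1 to 3.

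**Figure D1:**
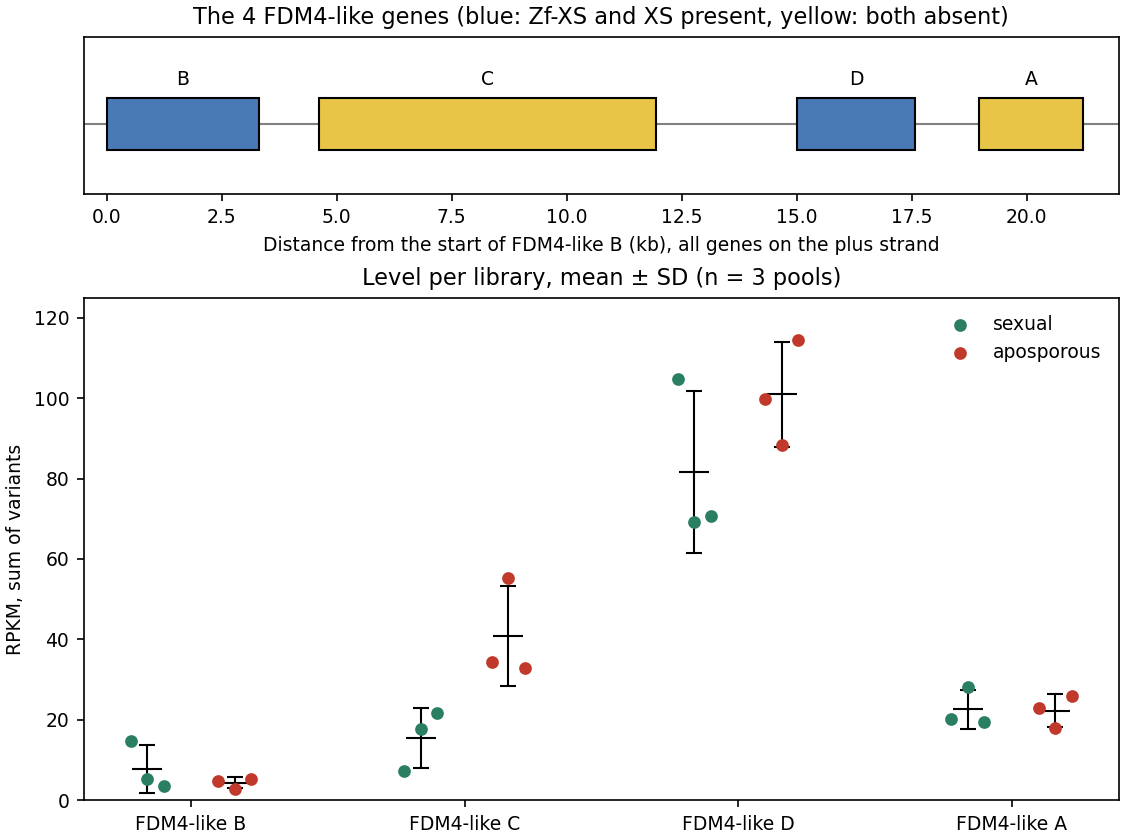
Top, the 4 genes to scale by distance in kb from the start of *FDM4-like B*, blue where the protein holds Zf-XS and XS and yellow where both are absent. Bottom, RPKM summed over the variants of each copy (points, libraries; bars, mean ± SD, n = 3 pools): D lay between 69.1 and 114 RPKM in all libraries, and only C had its aposporous points all above its sexual points.

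The order of the copies below D depended on the library. In sexual pool 1 the order was D, A, B, C, in sexual pool 2 it was D, A, C, B, and in sexual pool 3 and all 3 aposporous pools it was D, C, A, B. *FDM4-like C* thus ranked last in 1 pool and second in 4, while D stayed above A throughout. B, at 3.60 to 14.6 RPKM in sexual and 2.83 to 5.37 RPKM in aposporous pools, exceeded C in sexual pool 1 only.

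Ratios taken within a library do not depend on its depth or scaling. Over the 6 libraries D exceeded C by 3.80-fold, A by 4.05-fold and B by 17.2-fold (geometric means), and A exceeded B by 4.24-fold. Each of these 4 ratios pointed the same way in 6 of 6 libraries (exact two-sided sign-flip permutation test over libraries, p = 0.03125, the smallest that 6 libraries can give, and p = 0.0469 after Benjamini-Hochberg adjustment over the 6 pairs compared). C exceeded B by 4.51-fold, in 5 of 6 libraries (exact permutation test, p = 0.0625, adjusted p = 0.075). C and A could not be ordered, with a ratio of 1.06 and C higher in 4 of 6 libraries (exact permutation test, p = 0.8125). These p-values are over libraries of both phenotypes.

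Between phenotypes, 3 of the 6 ratios did not overlap when the variants of each copy were summed. The 6 ratios come from only 4 levels, and each of these 3 involves B or C, so they are not independent results. Among single tested transcripts, 10.2% were divided with aposporous pools higher and 9.9% with aposporous pools lower. The share of ratios between other transcripts so divided was not computed. C over A was 0.355, 0.630 and 1.11 in sexual pools 1 to 3 and 1.50, 3.08 and 1.27 in aposporous pools 1 to 3. C over B was 0.488, 3.39 and 6.0 in sexual and 7.13, 19.6 and 6.1 in aposporous pools 1 to 3. D over B was 7.15, 13.2 and 19.7 in sexual and 20.7, 31.3 and 21.3 in aposporous pools 1 to 3. The test of each was at its limit (two-sided exact permutation test, p = 0.1 each, the least that 3 against 3 libraries allow, and p = 0.2 after adjustment over the 6 pairs). The gap was narrow for C over B, 6.0 in sexual pool 3 against 6.1 in aposporous pool 3, and for D over B, 19.7 in sexual pool 3 against 20.7 in aposporous pool 1. The sums of C include Locus_2_Transcript_484402_835163, which passed the read filter through its aposporous pools alone, so its direction was fixed in advance. With only the main variant of C, the phenotypes overlapped in C over B. C and B were then at 25.7 and 4.83 RPKM in aposporous pool 1, against 21.6 and 3.60 RPKM in sexual pool 3. C over A then stayed apart only narrowly, with A at 23.0 and 19.5 RPKM in these pools.

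The other 3 ratios overlapped between phenotypes. D over A, the most even pair in aposporous ovules, was 4.34, 4.92 and 4.42 in aposporous pools and 5.21, 2.46 and 3.64 in sexual pools 1 to 3. D over C was 14.7, 3.90 and 3.28 in sexual and 2.90, 1.60 and 3.49 in aposporous pools. A over B was 1.37, 5.38 and 5.41 in sexual and 4.76, 6.36 and 4.82 in aposporous pools.

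**Figure D2:**
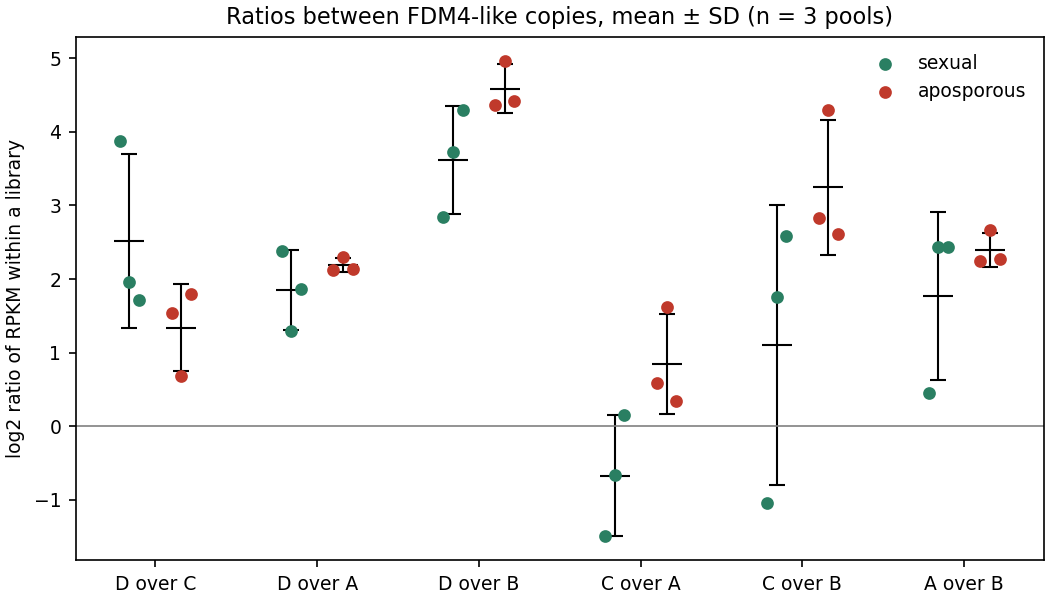
Log2 ratio of RPKM between each pair of copies within a library (points; bars, mean ± SD, n = 3 pools per phenotype; the line at 0 marks equal levels). With the variants of each copy summed, the phenotypes lie apart for D over B, C over A and C over B. The lowest points of C over A and C over B both come from sexual pool 1.

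Summed over the 4 copies, the cluster was at 147, 120 and 115 RPKM in sexual and 162, 165 and 179 RPKM in aposporous pools 1 to 3, 127 ± 16.8 against 168 ± 8.87 RPKM (SD, n = 3 pools). The phenotypes did not overlap and the means differed 1.32-fold. Of single tested transcripts 10.2% were also divided with aposporous pools higher, and the cluster sum itself was not tested. Of the difference of 41.0 RPKM, *FDM4-like C* accounted for 61.9% and *FDM4-like D* for 47.3%, while B was lower by 3.48 RPKM and A by 0.285 RPKM. The order of C and D turned without sexual pool 1 (41.9% for C and 61.2% for D) and without aposporous pool 2 (42.3% and 59.7%). It also turned with Locus_2_Transcript_484402_835163 left out, a variant that passed the read filter through its aposporous pools alone. The main variant of C was higher by 17.3 RPKM in aposporous pools, against 19.4 RPKM for D. The values of D overlapped between phenotypes.

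As a share of the cluster, *FDM4-like C* made up 4.87%, 14.7% and 18.7% of the RPKM in sexual and 21.2%, 33.6% and 18.4% in aposporous pools 1 to 3. The means were 12.8% ± 7.12 and 24.4% ± 8.10 (SD, n = 3 pools), and sexual pool 3 lay just above aposporous pool 3 (two-sided exact permutation test, p = 0.2). The level of C separated the phenotypes, as that of 10.2% of single tested transcripts did with aposporous pools higher, and its share did not. *FDM4-like B* made up 9.99%, 4.35% and 3.12% in sexual and 2.98%, 1.72% and 3.01% in aposporous pools (exact permutation test, p = 0.1). The phenotypes did not overlap in this share, by a margin of 0.109 percentage points between sexual pool 3 and aposporous pool 3, although the level of B itself did overlap. Of single tested transcripts 9.9% were divided with aposporous pools lower. The margin also rested on Locus_2_Transcript_484402_835163, which gave 8.75 of the 162 RPKM of the cluster in aposporous pool 1. With that variant left out of the total, aposporous pool 1 lay above sexual pool 3 in the share of B.

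*FDM4-like D* held 71.4%, 57.5% and 61.3% of the cluster in sexual and 61.6%, 53.7% and 64.1% in aposporous pools 1 to 3 (exact permutation test, p = 0.6), so more than any other copy in every library. *FDM4-like A* held 13.7%, 23.4% and 16.9% in sexual and 14.2%, 10.9% and 14.5% in aposporous pools (exact permutation test, p = 0.3). No share could reach 0.05, since 3 against 3 libraries cannot go below 0.1.

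The copies whose proteins lack Zf-XS and XS, A and C together, made up 18.6%, 38.2% and 35.6% of the cluster in sexual and 35.4%, 44.5% and 32.9% in aposporous pools 1 to 3. The phenotypes overlapped, at 30.8% ± 10.6 and 37.6% ± 6.13 (SD, n = 3 pools). Transcripts of B and D, the copies with both domains, were the larger part of the cluster in all 6 libraries. Transcript levels do not measure the proteins.

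**Figure D3:**
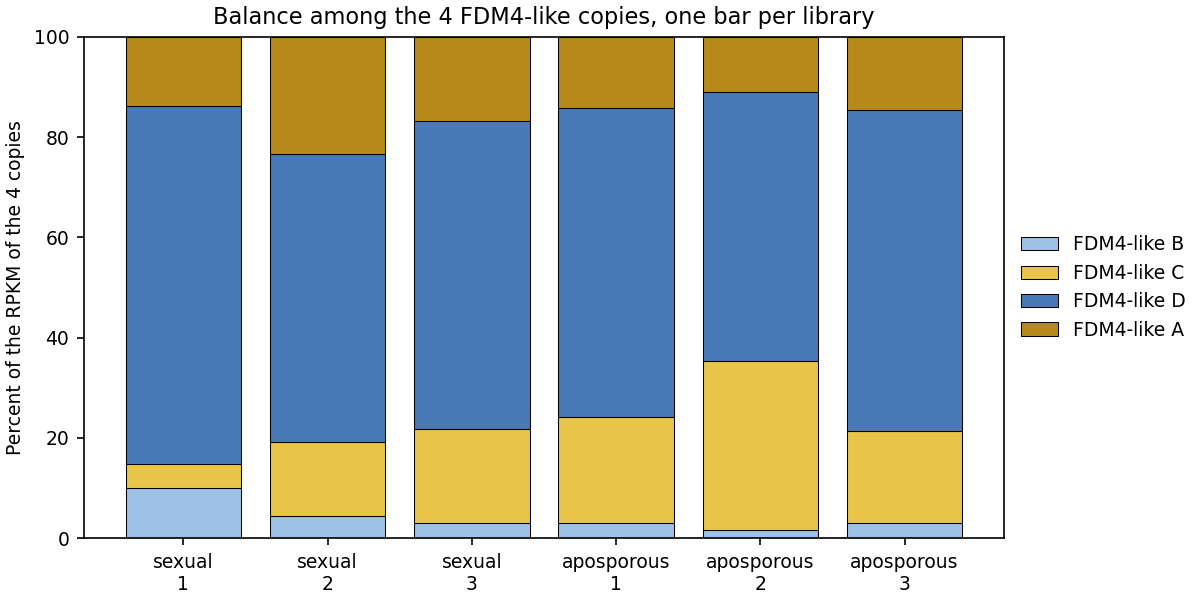
Percent of the summed RPKM of the 4 copies held by each copy, 1 stacked bar per library, in blue for B and D and in yellow and brown for C and A. C ranges from 4.87% in sexual pool 1 to 33.6% in aposporous pool 2, and D is the largest part of every bar.

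Variant usage differed between the copies with 2 variants. In *FDM4-like C* the variant Locus_2_Transcript_484402_835163 gave 0.882%, 0% and 0% of the RPKM of the gene in sexual and 25.4%, 25.8% and 4.04% in aposporous pools 1 to 3 (two-sided exact permutation test, p = 0.1, the least possible). This variant passed the read filter through its aposporous pools alone, so its direction was fixed in advance. The test and the shares therefore describe the variant and are not evidence of a difference between phenotypes. Aposporous libraries 1 and 2 used it to nearly the same extent although their totals for C differed, at 34.4 and 55.3 RPKM. Aposporous library 3 had nearly the total of library 1, 32.8 RPKM, with far less of this variant.

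The aposporous pools differed in this share by more than counting error. In reads, the variant took 211 of 1354, 416 of 2620 and 43 of 1928 reads of the gene in aposporous pools 1 to 3, that is 15.6% (95% Wilson interval 13.7 to 17.6%), 15.9% (14.5 to 17.3%) and 2.23% (1.66 to 2.99%). Sexual library 1 had 2 of 417 reads, 0.480% (0.132 to 1.73%). Sexual libraries 2 and 3 had 0 of 996 and 0 of 1111 reads, which allow shares of up to 0.301% and 0.270% (3 reads). These intervals and limits cover counting error only. Scaled by mapped reads, the 3 aposporous pools together held 352 times the reads of the 3 sexual ones for this variant (95% counting interval 97.2 to 2916). Without aposporous pool 2, which held 416 of its 670 reads, the ratio was 202, and without aposporous pool 3 it was 531. Both sexual reads came from sexual pool 1, so without that pool aposporous ovules were at least 152-fold higher (against 3 reads over the sexual group). The ratio was 233 without sexual pool 2.

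In *FDM4-like B* the minor variant Locus_2_Transcript_484959_835163 gave 2.58%, 4.52% and 1.19% of the RPKM of the gene in sexual and 4.12%, 13.1% and 0% in aposporous pools 1 to 3. The phenotypes overlapped (exact permutation test, p = 0.7), and these shares rest on at most 10 reads of the variant in a library. Copies A and D had 1 variant each. The minor variant was the shorter one in both B and C.

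**Figure D4:**
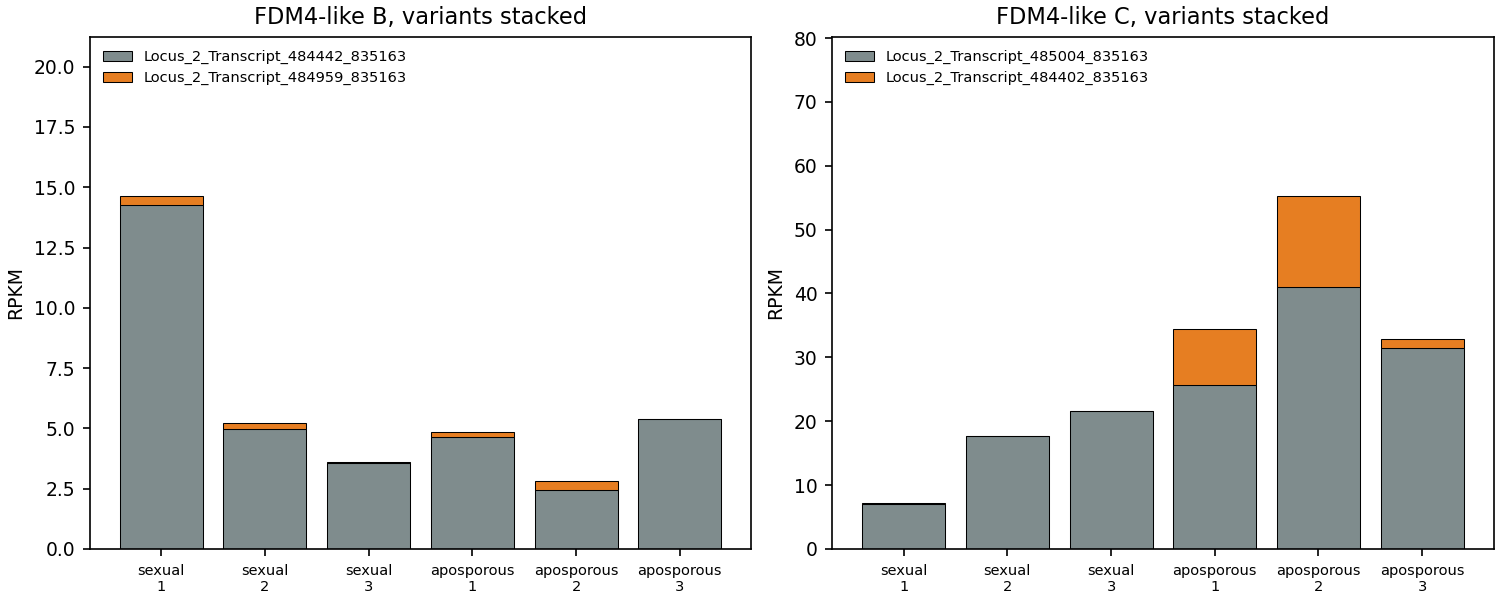
RPKM of the 2 variants of *FDM4-like B* (left) and *FDM4-like C* (right), stacked, 1 bar per library, on vertical axes of different range that start at 0. The minor variant of C is visible in the 3 aposporous bars, at 8.75, 14.3 and 1.33 RPKM, and the minor variant of B stays at or below 0.378 RPKM.

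Each variant was tested for a difference between phenotypes with limma on log2(RPKM + 1), with p-values adjusted over all 33117 tested transcripts (FDR, 0.05 or less called). Of the 5 variants tested, 0 were called, where 2.11% of all tested transcripts were, and voom on reads also called 0. Locus_2_Transcript_484402_835163 passed the read filter through its aposporous pools alone, so it had to differ and is left out of the counts that follow. Of the other 4 tested variants, 1 lay at an unadjusted p under 0.05, Locus_2_Transcript_485004_835163 of *FDM4-like C*, where 13.8% of all tested transcripts did. It was also the 1 variant of these 4 whose phenotypes did not overlap, higher in aposporous ovules, where 10.2% of tested transcripts were so divided. None of the 4 was divided the other way, as 9.9% of tested transcripts were.

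Locus_2_Transcript_485004_835163 of *FDM4-like C* had a log2 fold change of 1.14 (SE 0.41), above that of 95.3% of tested transcripts, and was not called (FDR = 0.236, limma). Locus_2_Transcript_484402_835163 had a log2 fold change of 2.78 (SE 0.63) and was not called either (FDR = 0.0660, limma). With a pseudocount of 0.1 or 0.5 in place of 1 it was called, at log2 fold changes of 5.59 (FDR = 0.0199) and 3.60 (FDR = 0.0428). With any 1 aposporous pool left out it did not pass the filter and was not tested. Since it passed the filter through its aposporous pools alone, its direction was fixed in advance. These fits describe the variant and are not evidence of a difference between phenotypes.

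For the gene as a whole, the summed level of *FDM4-like C* averaged 15.5 ± 7.47 RPKM over sexual and 40.9 ± 12.5 RPKM over aposporous pools (SD, n = 3 pools), 2.64-fold higher. The log2 fold change was 1.43 (SE 0.41) and was not called (FDR = 0.134, limma). Leaving out any 1 library gave mean ratios of 2.08 to 3.29. Locus_2_Transcript_485004_835163 made up 68.1% of the difference in RPKM and Locus_2_Transcript_484402_835163 made up 31.9%, so most of it lay in the variant that both phenotypes use.

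None of the neighbours of *FDM4-like C* was called. *FDM4-like D* differed by 0.32 on the log2 scale (limma, SE 0.24, FDR = 0.649). *FDM4-like B* had a sexual mean of 7.82 ± 5.96 and an aposporous mean of 4.34 ± 1.34 RPKM (SD, n = 3 pools), which limma put at -0.55 on the log2 scale (SE 0.50, FDR = 0.717). That value rested on sexual pool 1, without which the means were 4.41 and 4.34 RPKM. *FDM4-like A* was at -0.01 on the same scale (limma, SE 0.27, FDR = 0.991), and at 0.05 under TMM scaling.

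**Figure D5:**
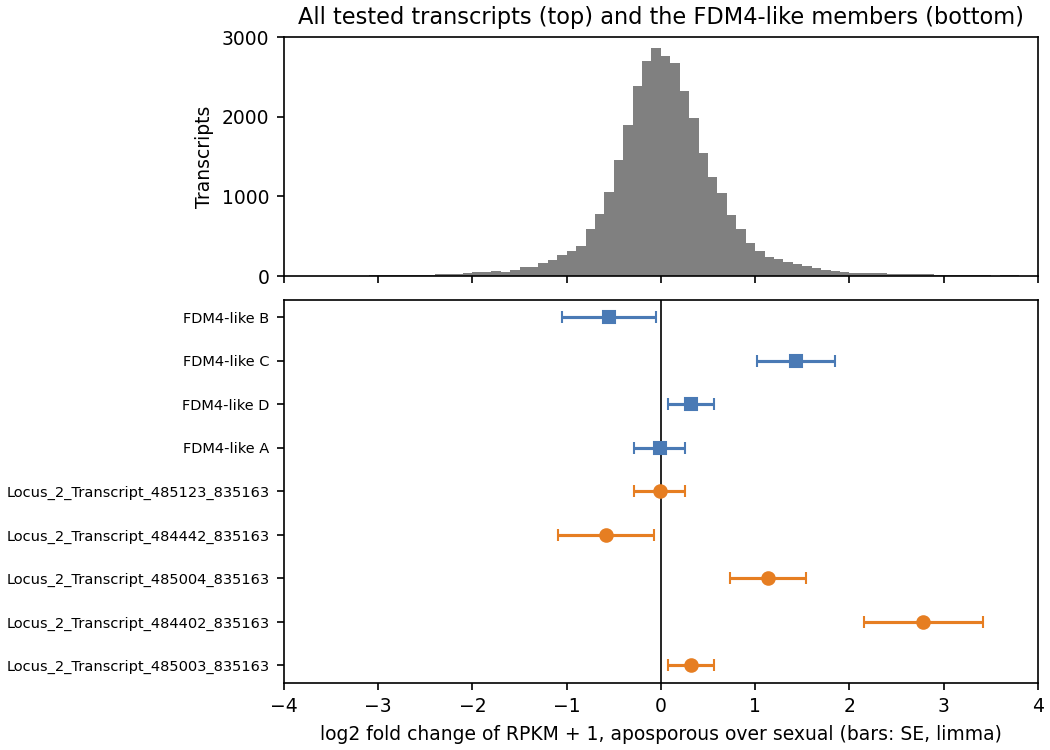
Top, number of tested transcripts by log2 fold change of RPKM + 1, aposporous over sexual (67 transcripts beyond 4 in either direction are outside the axis). Bottom, the same quantity for the 4 genes (squares) and 5 tested variants (circles) with their SE from limma: the *FDM4-like C* gene is at 1.43 and its variants at 1.14 and 2.78, and none was called.

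Within a phenotype, the main variants differed in how evenly the 3 pools expressed them. The coefficient of variation among sexual pools was 21.4% for the variant of A, 24.7% for D, 48.6% for the main variant of C and 76.5% for the main variant of B. Among aposporous pools the same values were 18.0%, 12.9%, 23.6% and 36.5%. All 4 were lower in aposporous pools, as was the median over all tested transcripts, 28.0% against 43.0%. The minor variants rest on few reads in at least 1 phenotype. That of B was at 76.7% among sexual and 97.7% among aposporous pools, and that of C was at 80.1% among aposporous pools, above 92.0% of transcripts of like level. Transcripts of like level had median coefficients of variation among sexual pools of 28.3% for A, 45.3% for B, 27.7% for C and 23.6% for D. The spread of B and C among sexual pools thus lay above that of transcripts of like level, and exceeded it for 86.9% and 80.6% of them.

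Sexual library 1 carried much of that spread, with the highest B and D and the lowest C of the sexual pools. Aposporous library 2 had the highest C and the lowest A, B and D of the aposporous pools. Over all 6 libraries, the library with the most B had the least C, and the library with the least B had the most C. The libraries between them did not keep this inverse order. Sexual pool 3 had B at 3.60 and C at 21.6 RPKM, and aposporous pool 3 had B at 5.37 and C at 32.8 RPKM. Matched by profile over the 6 libraries, as the mean absolute difference of centred log2(RPKM + 1), D and A were the closest pair of copies (0.287), and the neighbours B and C were the most distant pair (1.10).

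Among tested transcripts outside the family, the profile nearest to *FDM4-like C* was that of Locus_156717_Transcript_1_1, at a mean absolute difference of 0.132 against a median of 0.823. It was at 0.803, 2.65 and 2.95 RPKM in sexual and 6.75, 8.27 and 5.76 RPKM in aposporous pools 1 to 3. The profile nearest to *FDM4-like D* was that of Locus_2_Transcript_423618_835163, at 0.0392 against a median of 0.403. Both are descriptions over 6 libraries, and the files give neither transcript a gene name.

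The rest of the family consists of 5 *IDN2-like* and *FDM1-like* genes with 12 variants, of which 10 were tested. Of these, 1 was called lower in aposporous ovules, where 2.11% of all tested transcripts were called in either direction. Another, called higher, passed the read filter through its aposporous pools alone, so it had to differ and is left out of that count. The lower one, of *IDN2-like B* (FDR = 0.0299, limma), was not called under upper-quartile scaling (0.0519), voom (0.0544), the replicate block (0.0676) or 10 reads in every library (0.0881), nor without any 1 of the 6 libraries (0.0501 to 0.155). The higher one, of *FDM1-like C* (FDR = 0.0112, limma), was not called without sexual pool 1 (0.0588) or 2 (0.0796), and did not pass the filter with 10 reads in every library or without an aposporous pool. The summed level of these 5 genes was 353, 428 and 444 RPKM in sexual and 251, 248 and 238 RPKM in aposporous pools 1 to 3, opposite in direction to the *FDM4-like* cluster. The cluster therefore made up 29.3%, 21.9% and 20.6% of the RPKM of the family in sexual and 39.2%, 39.9% and 42.9% in aposporous pools. Much of this lay in *IDN2-like B*, whose mean was 204 ± 72.1 RPKM in sexual against 47.0 ± 19.5 RPKM in aposporous pools (SD, n = 3 pools). With *IDN2-like B* left out of the total, the cluster made up 38.6% ± 3.30 and 45.9% ± 0.254 (SD, n = 3 pools), and the phenotypes still did not overlap. With or without *IDN2-like B* the two-sided exact permutation test gave p = 0.1, the least possible. Of single tested transcripts 10.2% were divided in this direction.

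All 6 members belong to 1 assembly group, which holds 50.5% of the transcripts in the table and whose transcripts all carry an assembly confidence of 0. Each mapped read was counted once, so reads shared by near-identical variants or copies were given to 1 of them. How reads were divided between the 2 variants of C, or between the copies, was not tested.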

How the data were processed

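The deposited table gives RPKM per transcript for 6 libraries. The authors mapped reads of each library to a transcriptome assembled de novo from ovules and computed RPKM with CLC Genomics Workbench V 7 at default parameters. Every value, multiplied by transcript length and the mapped reads of its library, came out as a whole number of reads (100% of values, within 0.05 of a read or the rounding of the last deposited decimal), and these reads gave the filter (at least 10 reads in at least 3 libraries) and a voom alternative. The main test was limma 3.58.1 in R 4.3.3 on log2(RPKM + 1) with Benjamini-Hochberg adjustment over 33117 transcripts. Fold changes on this scale understate changes of low transcripts. Gene sums entered the same fit in place of their variants. Shares and ratios were compared with exact permutation tests in scipy 1.17.1.

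All 6 variants and 4 gene sums are named whatever their values, with 1 nearest profile each for *FDM4-like C* and *FDM4-like D*. The members and lists were chosen with earlier results of these data known. Gene positions, domains, assignments of variants and promoter elements come from the study's annotation. Alternatives were 2 other pseudocounts, 2 other filters, 2 scalings, voom, a replicate block, leaving out each library and, for shares, reads, main variants only, group sums and the family total. The genome-based mapping of the study was not analysed here.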

Additional observations from a re-analysis of the deposited data

How the results depend on the processing

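The number of transcripts called, 699, was 352 without a filter, 40 with at least 10 reads in every library, 325 with voom, and 41 to 478 with 1 library left out. With pool number as a replicate block it was 353. Deviations of same-numbered pools correlated at 0.0488, 0.0637 and 0.0381 over transcripts, none over 0.1, so the numbers were not taken to pair samples, although each sample correlated best with its own number. Under the block 0 of the *FDM4-like* variants were called, as under the other alternatives except a pseudocount of 0.1 (1 called) or 0.5 (1 called). The variant called in both was Locus_2_Transcript_484402_835163, which had passed the filter through its aposporous pools alone. The log2 fold change of the *FDM4-like C* gene stayed above 0 and uncalled under 14 alternatives, at 0.99 to 1.72 (FDR 0.0913 to 0.501, limma).

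*FDM4-like A*, gene and variant alike, changed sign under TMM scaling (0.0504 for the gene, 0.0505 for the variant) and without a library (-0.13 to 0.15). As a share of the whole family in place of the cluster, aposporous minus sexual differences turned positive for A (1.17 percentage points) and D (8.96), and that of B was -0.46. The difference in the share of C was 7.03 to 14.7 points under 10 alternatives, and that of Locus_2_Transcript_484402_835163 within C was 11.1 to 25.3 points under 8. This variant could not be fitted under the strictest filter or without an aposporous library. With 3 pools per phenotype, no exact test between phenotypes can go below 0.1.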
